A study of Homo sapiens with 6 samples.

Results

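The 57 genes described here encode proteins of the G2 phase and of mitosis: the mitotic cyclins and CDK1, the mitotic kinases, the spindle checkpoint, kinetochore and kinesin proteins, spindle and cytokinesis proteins, and the machinery that starts anaphase. They were taken as a named list, chosen with earlier results of these data known. The genes were matched by symbol in the deposited count table of 58735 genes, where each of the 57 was found once. All 57 had enough counts to be tested. RNA was sequenced from ES2 cells, a human ovarian cancer cell line labelled as high-grade serous carcinoma, in 2 groups of 3 libraries. The control group received a control siRNA and carries the genotype label WT, and the siUAP1 group received siRNAs against UAP1, the enzyme that makes UDP-N-acetylglucosamine, and is labelled UAP1 knockdown. The labels name 2 UAP1 siRNAs without saying whether they were pooled. All cells were transfected with the same lipid reagent, changed to complete medium after 6 hours and lysed for RNA 48 hours after transfection. Libraries of both groups are numbered 1 to 3, and a control and a siUAP1 library with the same number are called a pair. The labels do not say whether replicates were separate cultures, and p-values therefore describe spread among these 6 libraries that may be technical.

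Genes of this kind are transcribed in waves. In resting and G1 cells the DREAM complex, which contains the MuvB core, sits on their promoters and keeps them low, and from S phase on MuvB joins B-MYB and then FOXM1 and they are switched on. Their proteins drive entry into mitosis through cyclin B and CDK1, attach chromosomes to the spindle, hold anaphase back until all are attached, and are then marked for destruction by the anaphase-promoting complex (APC/C). Their mRNA is widely used as a readout of how many cells in a culture are dividing.

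MuvB contacts DNA at a short element named CHR (cell cycle genes homology region), and NF-Y binds CCAAT boxes in the same promoters. Promoters of 300 bases (250 before to 50 after the start site, RefSeq, GRCh38.p14) were found by symbol for 49 of the 57 genes; AURKA, BIRC5, BUB3, CDCA2, FOXM1, TPX2, TTK and UBE2C had no entry. The CHR was searched as TTTGAA or TTCGAA on both strands, so that TTCAAA counts as a match, and the NF-Y box as CCAAT or, on the other strand, ATTGG. At the first listed start site of each gene, 36 of 49 promoters held a CHR hexamer (73.5%), against 16.6% of 27305 promoters in the table. In 31 of 49 (63.3%) a hexamer began no more than 60 bases before the start site or after it, against 5.46% of all. A CCAAT box stood in 39 of 49 (79.6%), against 35.7% of all. Such a match is a description of the letters and does not show that a factor binds. The 8 windows of 30 bases shown here come from genes whose values are given library by library below. Among such genes with a hexamer, they are the 8 of smallest p when siUAP1 and control were compared within replicate pairs. All 8 genes fell in that comparison, so the windows do not stand for genes that did not fall. Each of the windows is centred on the hexamer nearest to a listed start site of that gene. They run 5′ to 3′ on the gene's own strand, with the hexamer in capitals.
NUF2 (chr1:163321958-163321987, plus strand): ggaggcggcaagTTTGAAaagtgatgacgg
CDK1 (chr10:60778475-60778504, plus strand): ctcgcacttggcTTCAAAgctggctcttgg
CDC20 (chr1:43358904-43358933, plus strand): cgacggttggatTTTGAAggagccaatagg
ANLN (chr7:36389830-36389859, plus strand): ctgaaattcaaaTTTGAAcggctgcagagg
MKI67 (chr10:128126435-128126464, minus strand): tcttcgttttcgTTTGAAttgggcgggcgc
GTSE1 (chr22:46296832-46296861, plus strand): ctcggagcccttTTCAAAccgaccaatcgg
HJURP (chr2:233854629-233854658, minus strand): gacgcaaatttgTTTGAAaggcccaatcag
CDCA8 (chr1:37692481-37692510, plus strand): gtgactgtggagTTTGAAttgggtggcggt
The hexamer began 17 bases after the start site in NUF2 and 10 bases after it in CDK1, where it belongs to another listed start site than the one used for the counts above, whose only hexamer began 161 bases before it. It began 65 bases before the start site in CDC20, 20 in ANLN, 29 in MKI67, 26 in GTSE1, 111 in HJURP and 23 in CDCA8. In CDK1 and GTSE1 the capitals are the reverse-strand form. In MKI67 and CDCA8 the hexamer shares a base with an ATTGG, the reverse of the NF-Y box.

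The libraries held 21267240 to 25972582 counts, of which mitochondrial genes took 4.23% to 6.02% and the 57 genes together 0.567% to 0.792%. UAP1 itself stood at 345, 357 and 444 CPM (counts scaled to library size by TMM) in control replicates 1 to 3 and at 21.8, 23.3 and 25.2 CPM in siUAP1 replicates 1 to 3, so that the target was low in every library labelled as knocked down. Among markers of ovarian carcinoma and epithelium, MUC16 and SOX17 had no count in any library, EPCAM, CDH1 and NAPSA had at most 10 counts in a library, and PAX8 and WT1 were at 0.136 and 0.486 FPKM (fragments scaled to gene length and library size) in control libraries, while KRT7, KRT8, KRT18 and MECOM were expressed. The expressed markers were thus keratins and MECOM, with PAX8 and WT1 low and MUC16 absent. These markers alone do not establish the serous label. The list summed to between 208 and 230 FPKM in control and between 285 and 355 FPKM in siUAP1 libraries, and the part of this shift in the results below was not tested. Leukocyte markers summed to at most 0.446 FPKM and erythroid markers to at most 0.0298 FPKM in any library. Endothelial markers, mainly CDH5, summed to 21.7 to 28.0 FPKM in control and 21.9 to 28.3 FPKM in siUAP1 libraries.

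Most of the 57 genes were expressed above the level of a typical gene. On the FPKM scale, which corrects for gene length and so allows levels of different genes to be compared, the median of the 57 control means was 22.6, against 4.05 over all genes tested, and 49 of 57 genes reached 10 FPKM, against 28.6% of all. The highest level was that of CKS2, a small CDK-binding subunit, at 203 ± 41.2 FPKM (SD, n = 3 control libraries). CDC20, the activator of the APC/C at anaphase, followed with 131 ± 18.6 FPKM, then CCNB1 (cyclin B1) with 89.5 ± 14.6, the spindle assembly factor TPX2 with 88.6 ± 11.0, the cytokinetic ring scaffold ANLN with 80.5 ± 12.5, the APC/C ubiquitin-conjugating enzyme UBE2C with 78.7 ± 6.82 and topoisomerase TOP2A with 67.3 ± 6.39. CKS2 and CDC20 are apart from the rest, whereas from CCNB1 to UBE2C each level lies within 1 SD of the next in this order. The kinase gene CDK1 stood at 49.996 ± 4.93 FPKM, and nearer to the median stood the kinase gene PLK1 (28.1 ± 3.42 FPKM) and the proliferation marker MKI67 (26.1 ± 5.50).

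At the low end were CDC25C, a phosphatase that activates CDK1, with 4.47 ± 1.17 FPKM, the cohesin protector SGO1 with 5.69 ± 0.468, and 2 genes whose counts are uncertain. PRC1, the midzone bundler of microtubules, was listed at 0.284 ± 0.0290 FPKM, the lowest of the set, and NUSAP1, a microtubule-binding protein of the spindle, at 5.20 ± 1.25. In GENCODE release 29, 57.6% of the exonic bases of PRC1 are shared with a same-strand gene model, AC068831.7, and 62.2% of those of NUSAP1 with AC087721.2, also on the same strand. These are the largest shares in the set, in which 23 of 57 genes share some exonic base with another gene. How shared reads were counted, and whether strand was used, is not given in the sources used here. Overlaps of over 10% also touch NCAPG (with LCORL), SGO1, FOXM1 (with ITFG2), PLK1 and BUB1B. Copies of these genes found by symbol, leaving aside the separate gene CKS1B, had a mean of at most 20.7 counts per library (UBE2SP1).

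**Figure D1:**
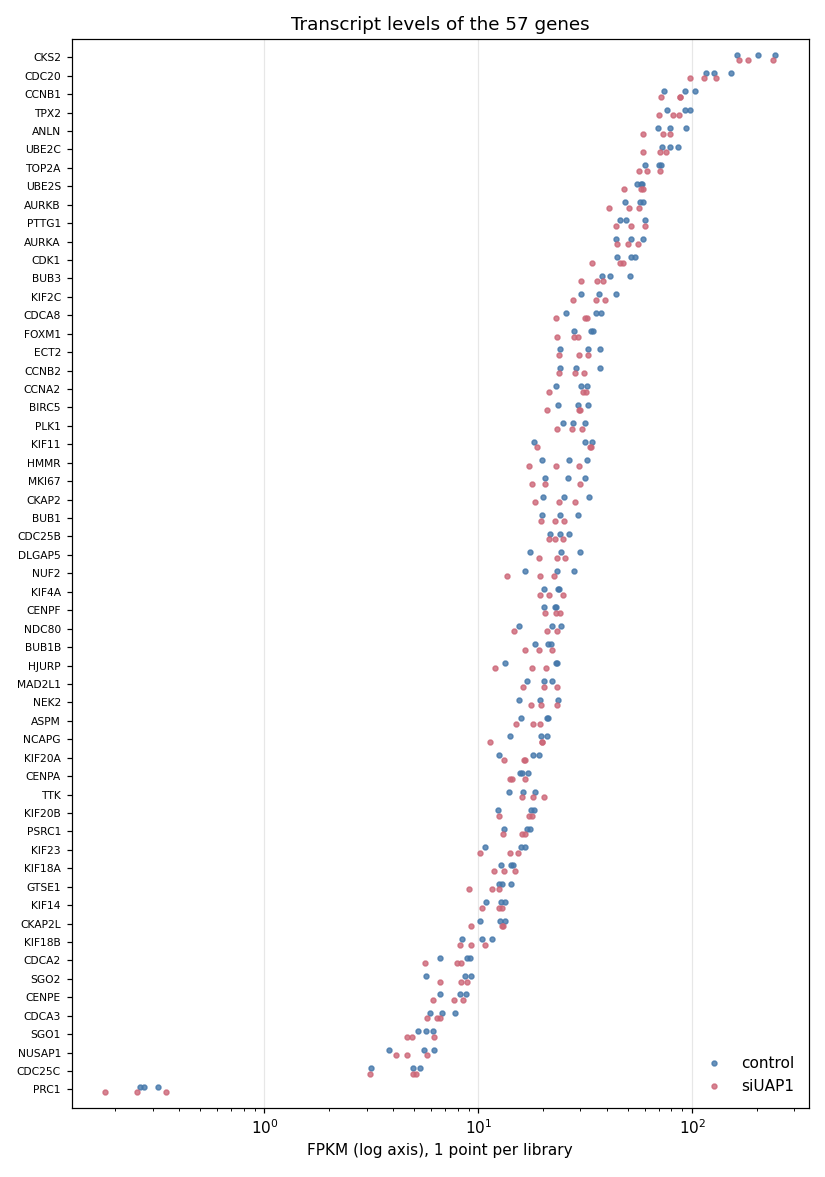
FPKM of each of the 57 genes in each of the 6 libraries on a log axis, ordered by the control mean, with blue points for control and red points for siUAP1. The order runs from PRC1 at 0.284 FPKM to CKS2 at 203 FPKM, and the points of the groups overlap in every row.

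The widest differences in the set lay between replicate numbers, in both groups alike. Both libraries of number 1 were low: the 57 genes summed to 6124 CPM in control and 5636 CPM in siUAP1 replicate 1, against 7524 and 7171 CPM in replicate 2 and 8060 and 7173 CPM in replicate 3. In 53 of 57 genes number 1 was the lowest of the 3 in both groups, which held for 23.7% of all genes tested. With the group as a covariate, edgeR's quasi-likelihood F-test found a difference between numbers in 55 of 57 genes at an adjusted p under 0.05, where 45.9% of all genes passed. CENPA and PRC1 did not pass. Between numbers 2 and 1, 50 genes were higher in number 2 (background 13.1%) and CKS2 alone was lower (background 2061 of 15768 genes). The median log2 difference was 0.32, against 0.00436 over all genes. Between numbers 3 and 1, 50 were higher in number 3 (background 18.5%) and FOXM1 alone was lower (background 2812 of 15768 genes). The median was 0.40, against 0.00316 over all genes. Numbers 2 and 3 lay closer: 17 genes were higher in number 3 (background 12.0%) and 2, FOXM1 and MKI67, were lower (background 11.6%), with a median of 0.06.

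**Figure D2:**
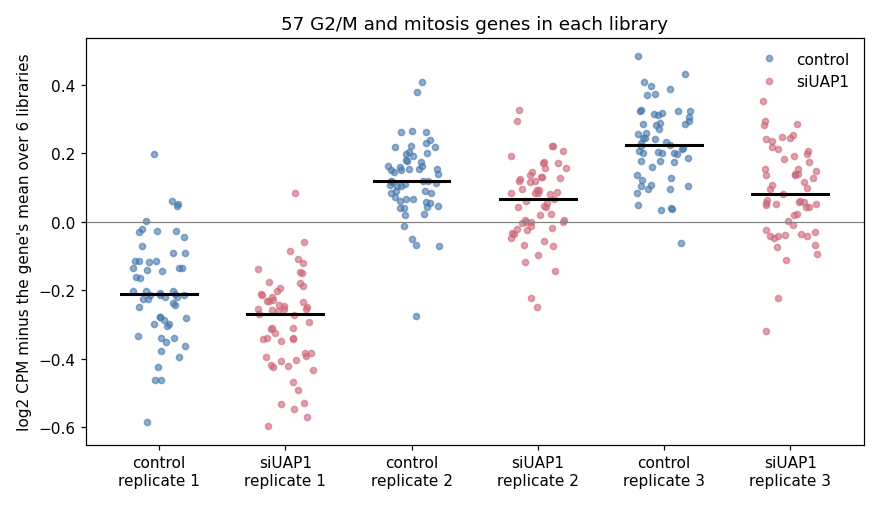
Each point is 1 of the 57 genes, plotted as its log2 CPM in a library minus its mean over the 6 libraries, and bars mark medians. The medians were -0.21 and -0.27 in control and siUAP1 replicate 1 and between 0.07 and 0.22 in the other 4 libraries.

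The largest single differences from number 1 were those of KIF11. This gene, which encodes the kinesin that pushes spindle poles apart, had 89.2 CPM in the control and 92.8 CPM in the siUAP1 library of number 1, 156 and 164 CPM in number 2 and 166 and 163 CPM in replicate 3. Number 1 was far below the others in both groups, by 0.81 (SE 0.0596) and 0.86 (SE 0.0597) on the log2 scale, with an F-test adjusted p of 4.31e-11. HJURP, the chaperone that loads the centromeric histone CENPA, was higher by 0.80 in number 2 and 0.69 in number 3 than in number 1, and the outer kinetochore gene NUF2 by 0.50 and 0.75. CENPA itself varied little, from 28.2 to 34.0 CPM, with an adjusted p of 0.657.

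The order of the numbers was not the same in all genes. In both groups number 3 was highest in 28 of 57 genes (background 23.6%) and number 2 in 10 of 57 (background 17.0%). MKI67 and FOXM1 are among those highest in number 2. CKS2 was lowest in number 2, with 100.4 CPM in control and 102 in siUAP1, against 126 and 113 CPM in number 1 and 150.3 and 148 CPM in number 3. MKI67 was highest in number 2, with 409.8 CPM in control and 387 CPM in siUAP1, and was 0.41 lower in number 3 than in number 2 (SE 0.0615, adjusted p = 2.65e-05). FOXM1, the transcription factor of the late wave, was lowest in number 3. Number 1 held the smallest total count within each group (21267240 and 23727266), number 2 the largest mitochondrial share (6.02% and 5.64%), and the libraries of a number carry a like code in their names that the labels leave unexplained. The part of these in the differences was not tested. In RNA of whole cultures, fewer cells in G2 and mitosis and less of each mRNA per cell cannot be told apart.

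**Figure D3:**
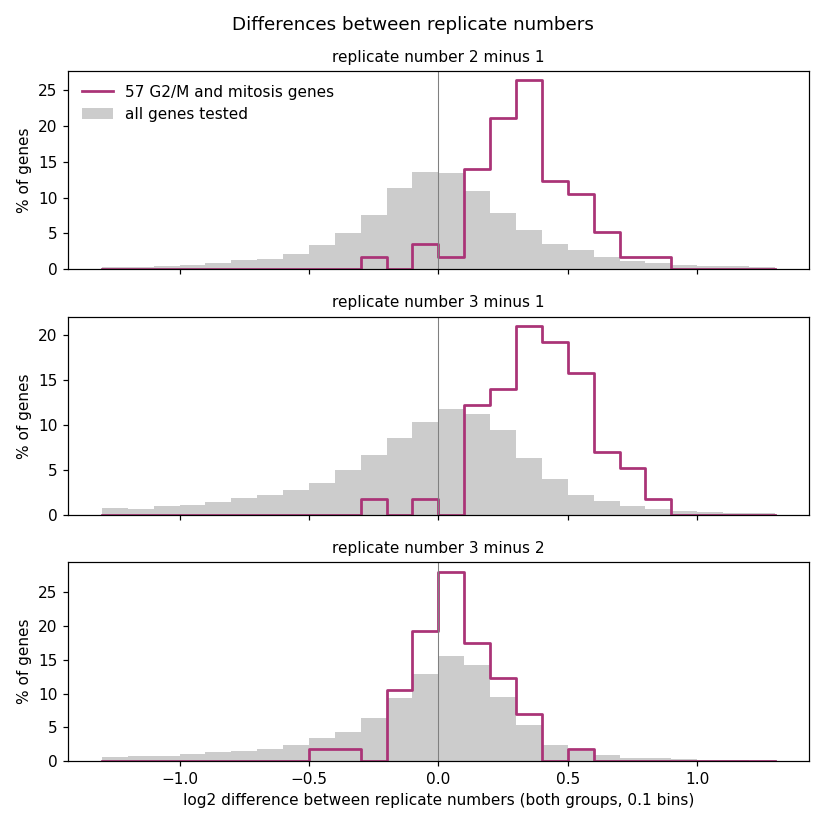
Histograms of log2 differences between replicate numbers in 0.1 bins, with grey bars for all 15768 genes tested and the line for the 57 genes. The 57 genes lie to the right of 0 against number 1, with medians of 0.32 and 0.40, and around 0.06 between numbers 3 and 2.

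The comparison of siUAP1 with control libraries addressed whether these genes change when UAP1 is lowered. Most lay slightly lower with siUAP1: 14 of 57 fell within pairs (background 7.14%), by 10.3% to 19.6%, among them CDK1, FOXM1, the checkpoint gene BUB3, the kinetochore gene NUF2 and MKI67, while 1 rose (background 9.07%), the checkpoint kinase gene TTK, and 42 did not pass the test. The summed CPM of the 57 genes was 7.98%, 4.69% and 11.0% lower with siUAP1 in pairs 1 to 3. These calls depend on the pairing, which was set as an alternative to the main fit, on the group alone. In the fit on the group alone, edgeR called 0 of 57 in either direction (background 0.0317% higher and 0.0761% lower). Of the 57, 1 gene (BUB3) had an unadjusted p under 0.05 (background 7.13%). DESeq2 (background 0.729% higher and 0.539% lower) and limma-voom (background 0.019% and 0.0571%) also called 0. With so few calls over all genes, 0 of 57 does not set these genes apart. With the replicate number as a block, which compares libraries within pairs, edgeR called 7.14% of all genes lower and 9.07% higher, so that falls were more frequent among the 57 (14 of 57) and rises less frequent (1 of 57) than over all genes, as a description. Fold changes, SEs and adjusted p from here on are from this edgeR fit with pairs, adjusted over all 15768 genes.

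The shift was small and on one side. The median log2 fold change of the 57 genes was -0.10 (-0.09, -0.07 and -0.14 in pairs 1 to 3), against -0.00295 over all genes tested. Below 0 were 50 of 57 values, against 50.7% of all genes. In all 3 pairs siUAP1 was lower for 30 of 57 genes (background 23.6%) and higher for 2, TTK and CENPF (background 23.4%). In no gene did the groups separate without regard to pairs: in 0 of 57 were all siUAP1 libraries below or above all control libraries, against 5.71% of all genes lower and 6.74% higher. The difference between numbers 3 and 1 was larger in size than the siUAP1 difference in 56 of 57 genes, and that between 2 and 1 in 51. Between numbers 3 and 2 the median absolute log2 difference of the 57 genes was 0.126, near the 0.105 of siUAP1. Over all genes too this median was larger between numbers 3 and 1 (0.248) than for siUAP1 (0.134).

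**Figure D4:**
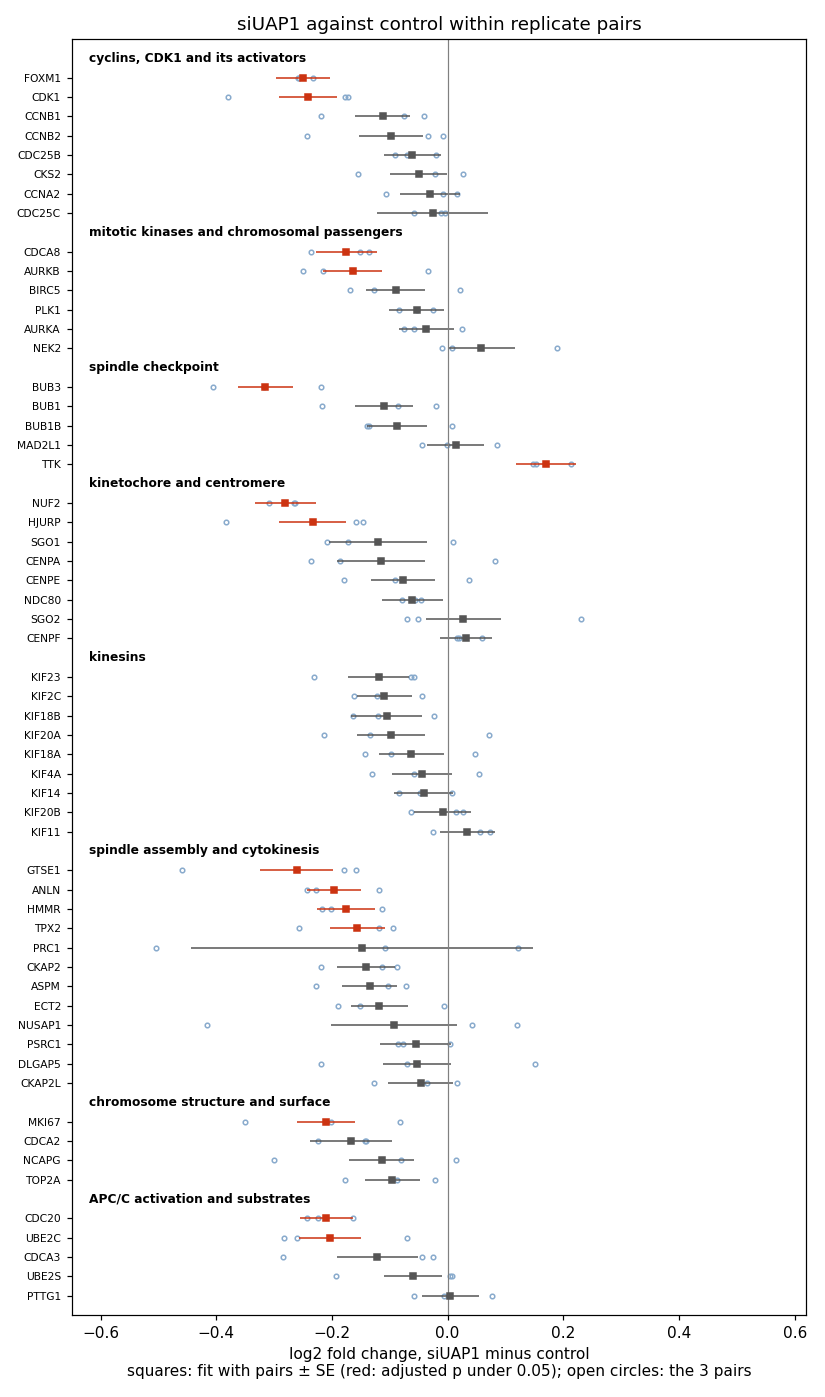
Log2 fold change of siUAP1 against control for each of the 57 genes, grouped by role, with squares and bars for the fit with pairs ± SE and open circles for single pairs. Of the 57 squares 50 lie below 0 (50.7% of all genes). The 15 red ones passed the threshold, with TTK the 1 on the right.

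Among the cyclins, CDK1 and its activators, 2 of 8 fell and 6 did not pass, with a median of -0.08. CDK1 (ENSG00000170312, GRCh38 chromosome 10, 60778331 to 60794852, plus strand), the kinase that drives mitotic entry and whose promoter window is printed above, stood at 176, 205 and 213 CPM in control and 135, 181 and 189 CPM in siUAP1 libraries. It was lower in each pair, most in pair 1, although siUAP1 replicates 2 and 3 lay above control replicate 1, and its fold change was -0.24, SE 0.04996, adjusted p = 0.00116. FOXM1 (ENSG00000111206, chromosome 12, 2857681 to 2877155, minus strand) stood at 165, 170.1 and 138 CPM in control and 138, 145 and 115 CPM in siUAP1 libraries. Its fall was nearly equal in the pairs, by 16.4%, 14.9% and 16.4%, with a fold change of -0.25, SE 0.0469, adjusted p = 0.000423, and its overlap with ITFG2 makes the counts somewhat uncertain. CCNB1 stood at 189.7, 239 and 264 CPM in control and 184, 227 and 227 CPM in siUAP1 libraries. It lay lower in each pair without passing the test (-0.11, SE 0.0481, adjusted p = 0.121). The other 5 were the cyclins CCNA2 (-0.03) and CCNB2 (-0.10), the phosphatases CDC25B (-0.06) and CDC25C (-0.03) and CKS2 (-0.05). Their values were all below 0, as were 50.7% of all genes, and none passed.

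Of 6 mitotic kinase and chromosomal passenger genes, 2 fell, both from the passenger complex that corrects faulty attachments. AURKB, its kinase, stood at 109.8, 130.0 and 133 CPM in control and 92.3, 127 and 115 CPM in siUAP1 libraries. The fall was marked in pairs 1 and 3 and slight in pair 2 (-0.16, SE 0.0516, adjusted p = 0.0296). CDCA8, the subunit borealin, stood at 64.2, 88.4 and 92.5 CPM in control and 57.7, 80.5 and 78.5 CPM in siUAP1 libraries, lower in every pair (-0.18, SE 0.0525, adjusted p = 0.0224). BIRC5 (survivin), of the same complex, was at -0.09 (adjusted p = 0.270) and did not pass. PLK1, the kinase of spindle poles and kinetochores, stood at 119, 134 and 152 CPM in control and 112, 132 and 146 CPM in siUAP1 libraries, and AURKA, the kinase of centrosome maturation, at 130.0, 154 and 174 CPM in control and 132, 148 and 165 CPM in siUAP1 libraries. Both varied more between numbers than between groups, with fold changes of -0.05 (SE 0.0474, adjusted p = 0.512) and -0.04 (SE 0.0475, adjusted p = 0.673). NEK2 was at 0.06 and did not pass.

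The spindle checkpoint, which holds anaphase back while kinetochores are unattached, held both the largest fall and the single rise. BUB3 (ENSG00000154473, chromosome 10, 123154277 to 123170467, plus strand), the scaffold that brings BUB1 and BUB1B to kinetochores, stood at 318, 348 and 427 CPM in control and 255, 299 and 322 CPM in siUAP1 libraries. It was 19.8%, 14.1% and 24.6% lower in pairs 1 to 3, and its highest siUAP1 value lay just above its lowest control value (-0.32, SE 0.0478, adjusted p = 3.09e-05). TTK (ENSG00000112742, chromosome 6, 80003887 to 80042527, plus strand), the kinase MPS1 that starts checkpoint signalling, stood at 63.9, 74.9 and 84.6 CPM in control and 74.1, 83.3 and 93.7 CPM in siUAP1 libraries. It was higher with siUAP1 in each pair (0.17, SE 0.0517, adjusted p = 0.0242). BUB1 (-0.11), BUB1B (-0.09) and MAD2L1 (0.01), the protein that inhibits CDC20, did not pass.

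In the kinetochore and centromere group 2 of 8 fell and 6 did not pass. NUF2 (ENSG00000143228, chromosome 1, 163266576 to 163355764, plus strand), a subunit of the microtubule-gripping NDC80 complex, stood at 55.9, 79.1 and 95.2 CPM in control and 46.5, 65.9 and 76.8 CPM in siUAP1 libraries. The libraries differed both by number and by group, and within pairs NUF2 was 16.8%, 16.8% and 19.3% lower (-0.28, SE 0.0531, adjusted p = 0.000462). NDC80, its partner in the complex, was at -0.06 (SE 0.0524, adjusted p = 0.499). HJURP stood at 51.1, 89.2 and 89.6 CPM in control and 46.1, 79.9 and 68.7 CPM in siUAP1 libraries, with the widest gap in pair 3 (-0.23, SE 0.0574, adjusted p = 0.00560). CENPA (-0.12), SGO1 (-0.12), CENPE (-0.08), SGO2 (0.03) and CENPF (0.03) did not pass.

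Of 9 kinesins, motors that move along spindle microtubules, 0 passed (background 7.14% lower and 9.07% higher), too few genes to set the role apart. Their 9 values ran from -0.12 to 0.03 with a median of -0.06. KIF23, the midzone motor of cytokinesis, stood at 70.8, 105 and 109 CPM in control and 67.8, 101 and 93.1 CPM in siUAP1 libraries, and KIF2C, which removes wrongly attached microtubules, at 111, 135 and 161 CPM in control and 102, 131 and 144 CPM in siUAP1 libraries. In both the gap was small beside that between numbers, with fold changes of -0.12 (SE 0.0526, adjusted p = 0.135) and -0.11 (SE 0.0483, adjusted p = 0.135). KIF11, which differed most between numbers, was at 0.03 (SE 0.0480, adjusted p = 0.711).

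Of 12 spindle assembly and cytokinesis genes, the largest role, 4 fell. All 12 values were below 0 (50.7% of all genes), with a median of -0.14. GTSE1, a microtubule-tip protein, stood at 53.3, 55.3 and 60.9 CPM in control and 38.8, 49.5 and 53.8 CPM in siUAP1 libraries. Pair 1 showed the widest gap, with values 27.3%, 10.5% and 11.7% lower in pairs 1 to 3 (-0.26, SE 0.0637, adjusted p = 0.00521). ANLN stood at 417, 479 and 566 CPM in control and 357, 441 and 478 CPM in siUAP1 libraries, lower in each pair (-0.20, SE 0.0466, adjusted p = 0.00414). The other falls were those of HMMR, a spindle pole protein (-0.18, adjusted p = 0.0164), and TPX2, the activator of AURKA (-0.16, adjusted p = 0.0240). CKAP2 (-0.14, adjusted p = 0.0536) and ASPM, which focuses spindle poles (-0.13, adjusted p = 0.0554), lay just outside the threshold, and ECT2, CKAP2L, DLGAP5, PSRC1, NUSAP1 and PRC1 did not pass either.

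Of 4 genes of chromosome structure and surface 1 fell. MKI67, whose protein coats mitotic chromosomes, stood at 265, 409.8 and 337 CPM in control and 231, 387 and 265 CPM in siUAP1 libraries. It was lower in each pair, with the widest gap in pair 3 (-0.21, SE 0.0505, adjusted p = 0.00451). TOP2A, which untangles sister DNA, stood at 389, 468 and 453 CPM in control and 366, 461 and 401 CPM in siUAP1 libraries and did not pass (-0.10, SE 0.0470, adjusted p = 0.185). CDCA2 was lower in each pair (-0.17, adjusted p = 0.122), with 26.01, 36.1 and 34.6 CPM in control and 22.3, 32.7 and 31.4 CPM in siUAP1 libraries, and NCAPG, a condensin subunit, was at -0.11. Neither passed.

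Among genes of APC/C activation and its substrates 2 of 5 fell. CDC20 stood at 237, 261 and 311 CPM in control and 200.5, 233 and 266 CPM in siUAP1 libraries. Its values were lower in each pair by a like amount (-0.21, SE 0.0458, adjusted p = 0.00191). UBE2C, which starts ubiquitin chains, stood at 93.1, 103 and 111 CPM in control and 76.5, 97.8 and 92.3 CPM in siUAP1 libraries, with a slight gap in pair 2 (-0.20, SE 0.0532, adjusted p = 0.00907). UBE2S, which extends the chains, was at -0.06, CDCA3 at -0.12 and PTTG1 (securin), a substrate, at 0.00, and none of them passed.

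**Figure D5:**
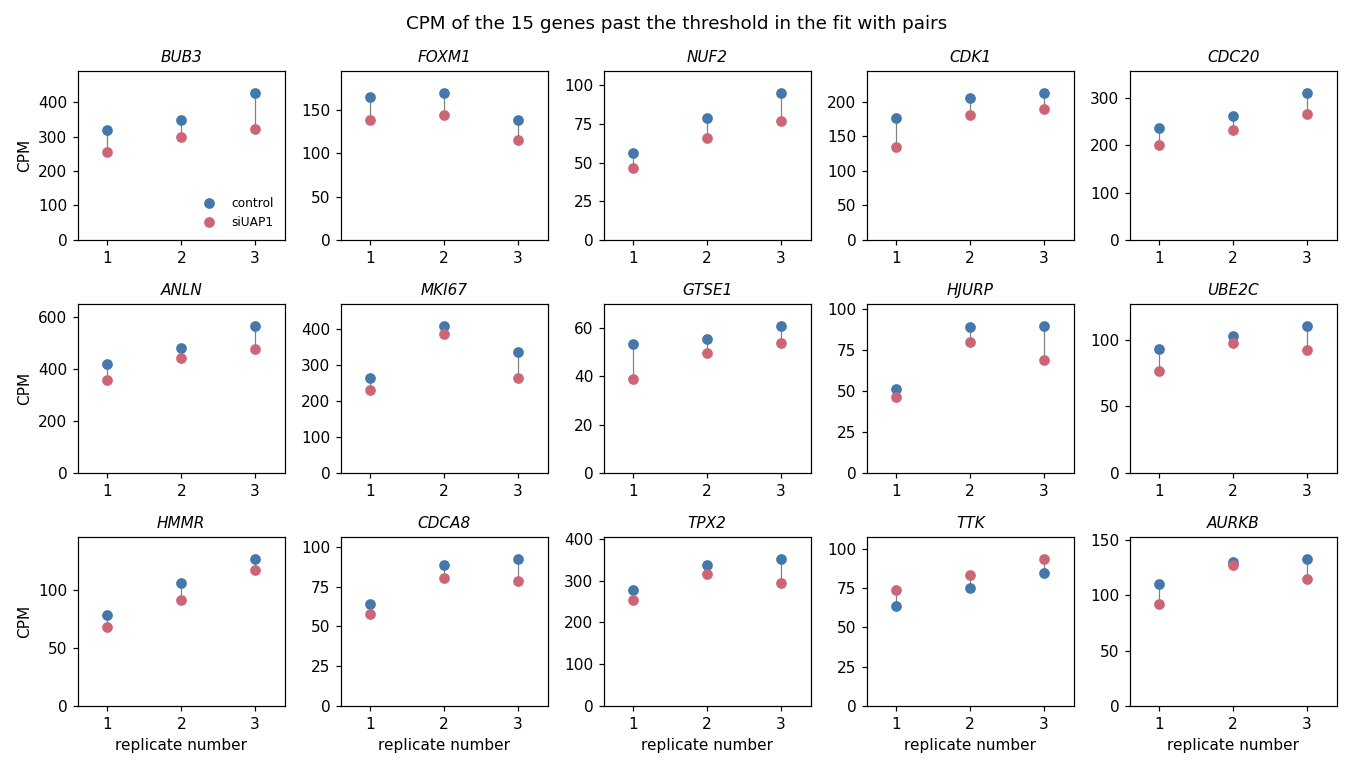
CPM of the 15 genes past the threshold in the fit with pairs, by replicate number, with blue for control, red for siUAP1 and a line joining each pair, and axes starting at 0. In 14 panels the red point lies below the blue in all 3 pairs and in TTK above.

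Fewest calls were left without pair 3, among the 57 genes and over the whole table. Without pair 3, 5 of 57 genes fell and 0 rose (background 2.81% lower and 4.61% higher). Without pair 1, 18 fell and 0 rose (background 6.09% and 7.80%), and without pair 2, 13 fell and 0 rose (background 5.56% and 7.03%). The 18 include ECT2 (adjusted p = 0.0121), ASPM (0.0138), CCNB1 (0.0314), BUB1 (0.0362), CKAP2 (0.0422) and KIF20A (0.0449), which did not pass with all pairs. BUB3, FOXM1, NUF2 and CDK1 passed without any 1 pair, with adjusted p no higher than 0.0312. Without pair 3, CDC20 (adjusted p = 0.0748), ANLN (0.155), MKI67 (0.248), HJURP (0.213), UBE2C (0.168), HMMR (0.0675), CDCA8 (0.238), TPX2 (0.389), TTK (0.129) and AURKB (0.276) did not pass. TTK did not pass without pair 1 (0.0761) or pair 2 (0.0791) either, nor did GTSE1 (0.0782) and AURKB (0.128) without pair 1 or HMMR (0.122) without pair 2.

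Other genes of the same pathways, none of them among the 57, lay slightly lower as well. These 144 genes in 7 lists were also chosen with earlier results of these data known, so their falls are not independent support. Of the 144 genes, 31 fell (background 7.14%), 2 rose (background 9.07%) and 111 did not pass, with a median of -0.08. In the fit on the group alone edgeR called 0 of them (background 0.0317% higher and 0.0761% lower). An unadjusted p under 0.05 was found for 2 (background 7.13%). Condensin and cohesin, the rings that compact chromosomes and hold sisters together, held the most falls, 9 of 19 with 0 rises, including the cohesin releaser WAPL (-0.21, adjusted p = 0.00569), the separase gene ESPL1 (-0.20, adjusted p = 0.00888) and the cohesin loader NIPBL (-0.20, adjusted p = 0.00957). Of 16 APC/C subunits and coactivators 5 fell and 1 rose, ANAPC16 (0.18, adjusted p = 0.0386), with CDC16 (-0.25, adjusted p = 0.00561), CDC23 (-0.22, adjusted p = 0.0108) and ANAPC7 (-0.20, adjusted p = 0.0116) among those that fell. Of 15 DREAM, MuvB and NF-Y subunits 3 fell, NFYA (-0.20, adjusted p = 0.00711), E2F4 (-0.16, adjusted p = 0.0331) and TFDP1 (-0.15, adjusted p = 0.0388), and 1 rose, TFDP2 (0.35, adjusted p = 0.000231), a partner of E2F factors.

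Of 32 other kinetochore and centromere genes 5 fell and 0 rose, among them CENPU (-0.35, adjusted p = 0.000330), SKA2 (-0.27, adjusted p = 0.00223) and KNTC1 (-0.20, adjusted p = 0.0118). Of 27 centrosome and other spindle genes 6 fell and 0 rose, among them RACGAP1, the partner of KIF23 in the central spindle (-0.25, adjusted p = 0.000650), gamma-tubulin TUBG1 (-0.24, adjusted p = 0.00408) and TACC3 (-0.15, adjusted p = 0.0227). In a list of 21 other genes of G2/M signatures TUBB4B (-0.24, adjusted p = 0.000442), HMGB2 (-0.18, adjusted p = 0.0120) and PBK (-0.20, adjusted p = 0.0449) fell and 0 rose. Of 14 genes of mitotic entry control, which include the CDK1 inhibitory kinase gene WEE1 and the CDK inhibitor gene CDKN1A, 0 passed in either direction and the median was 0.03. Between replicate numbers, 98 of these 144 genes differed (background 45.9%), and number 1 was lowest in both groups in 93 of them (background 23.7%).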

How the data were processed

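The authors deposited raw counts per gene for 58735 genes and a table of FPKM values, per the file headers and values. Genome build GRCh38.p12 and DESeq2 are named in the submitters' processing notes. For the aligner, the counter and strand use nothing is given in the sources used here. Libraries were grouped by title, and columns were matched to samples by library name. Within each group, libraries of different replicate numbers differed beyond sampling noise, with chi-square values of 23.9 to 41.3 for each degree of freedom. Tests used edgeR 4.0.16 under R 4.3.3 (scaling by TMM, filterByExpr with a minimum count of 10, 15768 genes kept, quasi-likelihood fit, Benjamini-Hochberg adjustment over all genes, threshold 0.05), on the group alone and with the replicate number as a block. The fit on the group alone was set as the main one and the fit with the block as an alternative. Pairing was accepted because deviations from group means (log2 CPM, prior count 2) correlated between same-numbered libraries at 0.552, 0.454 and 0.584, above the limit of 0.1. Numbers were compared in the same model with the group as covariate, and comparisons of single numbers were added after the data were seen. Alternatives used limma 3.58.1, DESeq2 1.42.0, other scalings and filters, FPKM and leaving out libraries. Fold changes from FPKM were taken after adding a pseudocount of 1 or 0.1. The edgeR fits on the group alone and with the replicate block, and the F-test between numbers, were run on simulated counts. The alternatives were not. The 57 genes, their roles and the 7 related lists were chosen with earlier results of these data known. Library-by-library values are given for the 2 genes of smallest p per role and 9 defining genes. In the related lists up to 3 called genes per direction were named, by smallest p. Promoter letters are from RefSeq, and start and end of all 57 genes equal those of GENCODE release 29. A gene of the epithelial marker list is not reported here.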

Additional observations from a re-analysis of the deposited data

How the results depend on the processing

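In the fit on the group alone, 0 of the 57 genes passed in either direction under the alternatives without pairs, that is RLE scaling, library totals, both filters, DESeq2, limma-voom, FPKM and leaving out any 1 library, of which a mean CPM of at least 5 and the filtered FPKM tested 56. Under these alternatives at most 0.729% of all genes passed higher and 0.539% lower, both with DESeq2. With the replicate block 14 fell and 1 rose (7.14% and 9.07% of all genes). Within that fit RLE scaling gave 14 and 1 (7.22% and 8.89% of all genes), library totals 16 and 1 (7.32% and 9.08%), limma-voom 16 and 1 (7.13% and 9.01%), DESeq2 11 and 0 (3.79% and 5.30%), and limma on log2(FPKM + 1) 0 and 0 (1.52% and 2.55%). Without replicate 1, 2 or 3 the fit with the block gave 18, 13 and 5 falls (6.09%, 5.56% and 2.81% of all genes) and 0 rises (7.80%, 7.03% and 4.61%). The median log2 fold change of the 57 genes was -0.11 on the group alone and -0.10 with the replicate block, and -0.06 (-0.0628) with the block and without replicate 3. On the group alone it ran from -0.23 without control replicate 1 to 0.00 (0.00185) without siUAP1 replicate 1, which turned its sign, and was -0.00175 without control replicate 3. Without siUAP1 replicate 1 or control replicate 3, values of genes that did not pass also turned sign. Over the fits on the group alone that leave out 1 library, KIF23 ran from -0.30 to 0.031, KIF2C from -0.24 to 0.027, PLK1 from -0.14 to 0.043 and AURKA from -0.14 to 0.061. The cause was not tested. The number of genes differing between replicate numbers was 51 to 55 of 57 under the alternatives, where the share of all genes ran from 23.7% without a filter to 56.0% at a mean CPM of at least 5, and 19 between numbers 2 and 3 alone, a comparison added after the data were seen. The lowest count of any of the 57 genes in a library was 24 (PRC1), a gene whose counts are uncertain because of the shared exonic bases given above.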
